A study of Homo sapiens with 4 samples.

Results

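The transcripts of 9 target genes of the tumour suppressor p53 were measured in HPTCs, human proximal tubular cells, that had received the cytokine IL-1β together with Empa (empagliflozin, an inhibitor of the kidney's glucose transporter SGLT2). The target genes were MDM2, GDF15, SESN1, SESN2, TP53I3, FDXR, ZMAT3, TP53INP1 and RRM2B, taken as every array probe that carries one of these gene names. They came to 9 of 25992 gene names, 14 of 34127 probes and 32 of 43118 spots. The study hybridised RNA to 1-colour arrays of 60-base probes, with 2 arrays for each of 2 cell lines by label, HK-2 and RPTEC/TERT1. In both groups cells at confluence, grown at normal glucose, had gone without serum and supplements for 24 h, and were then exposed for 24 h to 10 ng/mL IL-1β plus 500 nM Empa. No value below is an effect of IL-1β or of Empa, since control arrays and arrays with the cytokine by itself were not used here. HK-2 cells were immortalised with oncogenes of a human papillomavirus, whose products include a protein that targets p53 for degradation, and RPTEC/TERT1 cells were immortalised with telomerase. Each label stands for 1 cell line, and the methods call the 2 arrays of a label biological duplicates.

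p53 is a transcription factor that stays scarce in unstressed cells, because the ubiquitin ligase MDM2, itself encoded by a p53 target, marks it for destruction. DNA damage, nutrient shortage and other stresses release it, and it then binds response elements near its targets and raises genes for cell cycle arrest, DNA repair, antioxidant defence and cell death, while cell cycle genes fall through p21 and the repressor complex DREAM. In the kidney tubule p53 is known for its part in the response to ischaemic and toxic injury, and several of its targets, GDF15 and SESN2 among them, also answer to other stress factors such as ATF4.

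The arrays did not group by their labels, which bears on every comparison between the cell lines. They fell into pair A (HK-2 replicate 1, RPTEC/TERT1 replicate 2) and pair B (HK-2 replicate 2, RPTEC/TERT1 replicate 1), names that stand for likeness alone. Across 17928 genes the Pearson correlation was 0.980 within pair A and 0.976 within pair B. It was 0.865 between both HK-2 arrays, 0.855 between both RPTEC/TERT1 arrays, 0.861 between the arrays numbered 1 and 0.875 between those numbered 2. Both arrays of a replicate number were scanned on the same date, and each array lay on a slide of its own. The labels were kept as given, and whether any of them was exchanged was not tested. Of the spots, 59.2 to 64.9% were well above background (the scanner software's flag) and 56 to 217 per array were saturated. Of 4 epithelial markers KRT8, KRT18 and EPCAM were well above background on all 4 arrays, and of 8 proximal tubule markers LRP2, GGT1 and SLC5A2 were, whereas the proximal tubule markers CUBN and SLC22A6 were so on none. The remaining epithelial marker, CDH1, was well above background in pair A only, at log2 levels of -0.72 (HK-2) and -1.12 (RPTEC/TERT1), and at the floor of -5.37 in pair B. Markers of other cell types were partly present. VWF and KDR (endothelium), SLC12A3 and AQP2 (distal nephron) and COL1A2 and PDGFRB (fibroblasts) were well above background on no array, but the endothelial CDH5, the distal UMOD and the leukocyte genes PTPRC and CD14 were on all 4. SLC12A1, of the loop of Henle, was so in pair A only, at levels of -0.51 and -0.10, and the fibroblast gene DCN in pair B only, at -0.62 and -0.87 (HK-2 array first, log2 relative to the 75th percentile of the array). The summed signal of the 8 proximal tubule markers was 2.24 and 2.39 times that percentile in pair A and 1.24 and 1.14 times in pair B, and without ANPEP, which was well above background in pair A only, 0.83 and 1.01 times in pair A and 1.22 and 1.11 times in pair B. The direction for this list thus rested on ANPEP. The summed signal of the 4 epithelial markers was 25.1 and 28.0 times the percentile in pair A and 16.6 and 12.1 times in pair B. The part of these markers in the values below was not tested. Wherever 2 values are given for a label, that of replicate 1 comes first.

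The sequence before the start site is shown for 5 of the genes, to set the promoter letters of genes that differed in behaviour side by side: TP53I3 and GDF15, which varied together, SESN2, which varied the opposite way, and SESN1 and FDXR, the only members whose windows held an exact match to the p53 decamer (the consensus of 10 bases that p53 binds, as the unit of a longer element). Each line gives the 250 bases before a RefSeq start site on the gene's own strand, from GRCh38.p14. RefSeq lists 3 such windows for SESN1 and 2 for FDXR, of which the one with the decamer is shown, and which start sites the measured transcripts came from was not tested. SESN2 lies at chr1:28259268-28259517 on the plus strand, TP53I3 at chr2:24084835-24085084 on the minus strand, SESN1 at chr6:109008989-109009238 on the minus strand, FDXR at chr17:74872995-74873244 on the minus strand and GDF15 at chr19:18385908-18386157 on the plus strand. Capitals mark the p53 decamer and the general promoter motifs GGGCGG (the GC box), CCAAT (bound by NF-Y) and TATAAA (the TATA box), each searched on both strands, so that CCGCCC is the GC box, and ATTGG the NF-Y motif, of the opposite strand. The motifs overlap in no place in these 5 windows.
GDF15: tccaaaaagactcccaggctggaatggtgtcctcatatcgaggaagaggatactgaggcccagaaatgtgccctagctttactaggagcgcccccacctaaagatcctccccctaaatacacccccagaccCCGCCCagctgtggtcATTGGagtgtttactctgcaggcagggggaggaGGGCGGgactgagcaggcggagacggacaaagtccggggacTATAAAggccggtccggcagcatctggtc
TP53I3: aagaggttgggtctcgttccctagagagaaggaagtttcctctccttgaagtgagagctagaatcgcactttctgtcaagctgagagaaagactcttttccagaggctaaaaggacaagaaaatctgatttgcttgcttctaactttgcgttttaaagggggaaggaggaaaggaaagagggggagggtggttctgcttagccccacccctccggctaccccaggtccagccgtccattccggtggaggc
SESN2: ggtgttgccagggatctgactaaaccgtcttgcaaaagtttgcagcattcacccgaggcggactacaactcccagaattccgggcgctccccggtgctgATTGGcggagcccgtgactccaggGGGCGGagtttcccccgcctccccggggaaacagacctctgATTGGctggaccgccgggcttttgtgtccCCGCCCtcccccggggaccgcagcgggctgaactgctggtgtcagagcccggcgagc
SESN1: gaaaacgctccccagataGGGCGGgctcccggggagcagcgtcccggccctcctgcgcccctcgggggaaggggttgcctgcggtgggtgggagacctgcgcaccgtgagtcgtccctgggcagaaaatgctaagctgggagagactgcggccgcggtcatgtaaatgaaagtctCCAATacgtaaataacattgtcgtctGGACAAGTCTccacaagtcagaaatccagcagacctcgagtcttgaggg
FDXR: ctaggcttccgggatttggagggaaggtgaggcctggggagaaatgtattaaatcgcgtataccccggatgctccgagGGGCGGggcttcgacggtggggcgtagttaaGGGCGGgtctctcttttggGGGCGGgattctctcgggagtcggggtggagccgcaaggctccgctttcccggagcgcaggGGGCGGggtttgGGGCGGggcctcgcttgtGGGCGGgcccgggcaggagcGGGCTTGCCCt
The decamer lay 11 to 2 bases before the FDXR start, as GGGCTTGCCC, and 49 to 40 bases before this start of SESN1, as GGACAAGTCT. It was found in 2 of the 14 windows listed for the 7 members that matched by symbol, and in 5.57% of all 35116 windows of this length. Only exact matches were counted, so elements with mismatches were missed, and TP53INP1 and RRM2B had no window. GDF15 alone held TATAAA, found in 10.7% of all windows, while GGGCGG stood in 10 of the 14 windows against 42.6% of all, and CCAAT in 10 of 14 against 32.01%. MDM2 windows that start at 68807922 and 68807927 overlap by nearly all of their bases, as do those that start at 68808767 and 68808774. The same sites thus enter these counts more than once. The TP53I3 window held none of these motifs. A match is a run of letters in a window, and neither a match nor its absence says where p53 was bound in these cells.

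All 9 target genes were measured well above background on all 4 arrays, through at least 1 probe each. A level is the log2 of a gene's signal as a share of the array's 75th percentile, so that 0 is that percentile and 1 unit is a 2-fold difference. TP53I3, GDF15, SESN2 and RRM2B varied most between arrays, over 6.45-, at least 6.11-, 6.09- and 3.60-fold (the GDF15 spot was saturated on its highest array, so its rank among the first 3 is not settled), and MDM2 and FDXR least, over 1.39- and 1.32-fold. In 7 of the 9 genes both arrays of pair A stood above both of pair B, beside 38.8% of all genes. In SESN2 pair B stood above pair A, as in 33.2% of all genes, and FDXR had neither order. For MDM2 the order with pair A above did not hold with its brightest probe alone. In the signals before scaling, pair A did not stand above pair B in SESN1, ZMAT3 or any MDM2 probe. In none of the 9 did the levels of the HK-2 arrays lie wholly above or below those of the RPTEC/TERT1 arrays. With the brightest MDM2 probe alone, both HK-2 arrays lay above both RPTEC/TERT1 arrays. In RNA of whole cultures, fewer cells that express a gene and less RNA per cell cannot be told apart.

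**Figure D1:**
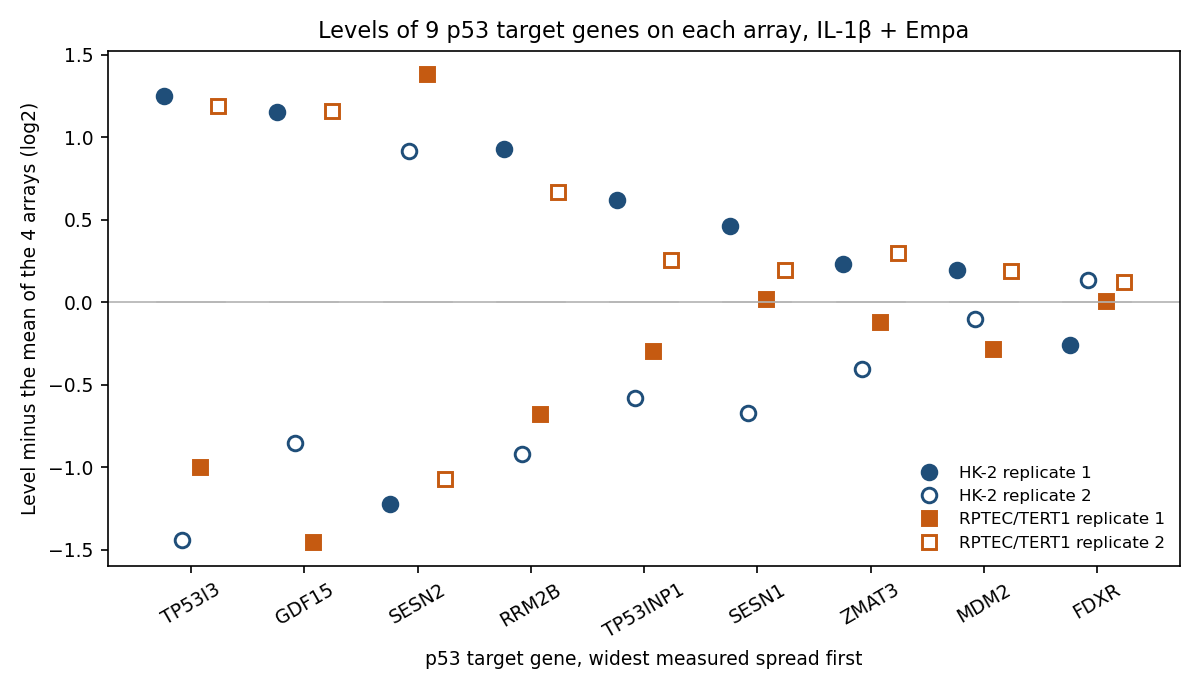
Level of each of the 9 target genes on each array, as log2 difference from the gene's mean over the 4 arrays, ordered by measured spread from the left (a lower bound for GDF15, whose spot was saturated on RPTEC/TERT1 replicate 2). Circles are HK-2 and squares RPTEC/TERT1, filled for replicate 1 and open for replicate 2. Filled circles and open squares lie together at the top for 7 genes and at the bottom for SESN2. Over all genes 38.8% and 33.2% had these orders.

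MDM2, which encodes the ligase that degrades p53, had levels of -2.36 and -2.66 in HK-2 and -2.84 and -2.37 in RPTEC/TERT1. By these levels the ranges of both labels overlapped, and the highest and lowest array stood 0.48 apart. The value is the mean of 3 probes on the plus strand of chromosome 12 (GRCh37), at 69233570-69233629, 69233822-69233881 and 69238891-69238950. They did not share an order of arrays. The probe at 69238891, the brightest of them, had -1.36 and -1.42 in HK-2 and -1.67 and -1.58 in RPTEC/TERT1. By this probe alone both HK-2 arrays thus stood above both RPTEC/TERT1 arrays. The probe at 69233570 was highest on RPTEC/TERT1 replicate 2 at -1.20. The probe at 69233822 is spotted 10 times and was dim, with a spot SD of 0.42 on HK-2 replicate 1 and 0.15 to 0.26 on the other arrays, and 3 of its spots were left out as outliers on RPTEC/TERT1 replicate 1. With the brightest probe alone, the within-number difference HK-2 replicate 2 minus RPTEC/TERT1 replicate 2 changed from -0.29 to 0.17. Before scaling, each of the 3 probes had its highest signal on HK-2 replicate 2. So the order of MDM2 over the arrays depended on the probe and on the scaling.

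ZMAT3, an RNA-binding zinc finger protein that acts on mRNA stability and splicing downstream of p53, is the other member spotted 10 times (chromosome 3, 178742161-178742220, minus strand, GRCh37). Its levels were -2.56 ± 0.16 (SD, n = 10 spots) and -3.19 ± 0.08 (SD, n = 9 spots) in HK-2, and -2.91 ± 0.15 and -2.49 ± 0.13 (SD, n = 10 spots each) in RPTEC/TERT1. Pair A was higher, and the labels overlapped. The arrays of a label differed by 0.63 in HK-2 and 0.42 in RPTEC/TERT1, against spot SDs of 0.08 to 0.16. Before scaling, the mean signals were 67.2 and 82.1 in HK-2 and 65.4 and 76.6 in RPTEC/TERT1. HK-2 replicate 2, lowest in level, was thus highest in signal, and the order of the levels rests on the scaling. Spots of 1 array share their RNA and are no replicates of the cells. For the 7 genes with single-spot probes only the array's general spot error is known. Of 999 probes with 10 spots each, 689 to 740 per array were well above background, and their median spot SD was 0.08 to 0.14. Dimmer probes were left out of this median.

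**Figure D2:**
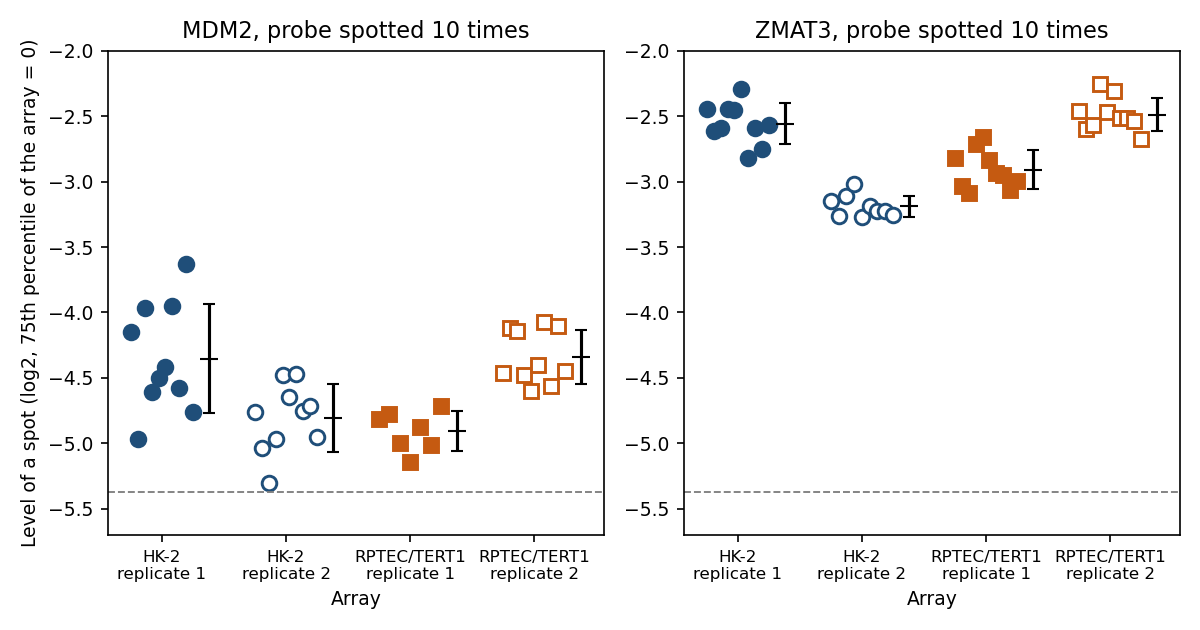
Level (log2) of each spot of the 10-fold spotted probes of MDM2 (left) and ZMAT3 (right) on each array, with the mean and SD of the spots as a black bar beside them. The dashed line is the floor at -5.37 below which levels were not resolved. MDM2 spots lie close to the floor and overlap between arrays, while ZMAT3 spots of HK-2 replicate 2 all lie below those of RPTEC/TERT1 replicate 2.

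GDF15, a secreted cytokine of the TGF-β family that is released by stressed cells, had processed signals of 54090 and 25660 in HK-2 and 11050 and 59260 in RPTEC/TERT1. The levels were 7.10, 5.10, 4.50 and 7.11 in the same order. The arrays of pair A differed by 0.01 and stood 2.00 above HK-2 replicate 2, so both labels held a high and a low array. The spot was saturated on RPTEC/TERT1 replicate 2, where the level is a lower bound. GDF15 is read by a single spot, of a probe at 18499890-18499949 on the plus strand of chromosome 19 (GRCh37).

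The sestrins are antioxidant proteins that restrain the growth kinase mTORC1. SESN2, which also senses leucine, had levels of -1.68 and 0.46 in HK-2 and 0.93 and -1.53 in RPTEC/TERT1. It was the single member that was high where GDF15 was low, and again each label held a high and a low array. The signals were 123 and 149 on the low arrays and 1027 and 928 on the high ones, all well above background, from a probe at 28608194-28608253 on the plus strand of chromosome 1 (GRCh37).

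SESN1, its paralogue, had levels of -2.16 and -3.29 in HK-2 and -2.60 and -2.43 in RPTEC/TERT1. HK-2 replicate 2 stood lowest and HK-2 replicate 1 highest, with both RPTEC/TERT1 arrays between them. Before scaling, the signals were 88.1, 76.3, 80.4 and 79.8 in the same order, while the 75th percentile was 393 and 748 in HK-2 and 488 and 429 in RPTEC/TERT1. The unscaled signals were thus close to each other, and the order of the levels is that of the percentiles turned round. The probe lies at 109308477-109308536 on the minus strand of chromosome 6 (GRCh37). SESN3, the third sestrin, was on the array and was not among the genes tested.

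TP53I3, a quinone oxidoreductase that generates reactive oxygen species, had levels of 2.07 and -0.62 in HK-2 and -0.17 and 2.02 in RPTEC/TERT1. Its levels spanned 2.69, with the high arrays 0.06 apart and each label split between high and low. It was read by 2 probes on the minus strand of chromosome 2 (GRCh37), one at 24300504-24300563 and one whose 60 bases are spread over 24300615-24302356, as a probe across a splice junction would be. HK-2 replicate 1 stood 2.67 above HK-2 replicate 2 by the first and 2.71 by the second, and the difference RPTEC/TERT1 replicate 1 minus replicate 2 was -2.17 and -2.21. Both probes thus gave the same order and nearly the same differences.

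FDXR, ferredoxin reductase, passes electrons to mitochondrial cytochromes P450 and serves iron-sulphur cluster synthesis. Its levels were 0.80 and 1.19 in HK-2 and 1.06 and 1.18 in RPTEC/TERT1. HK-2 replicate 1 was the low array and the other 3 lay within 0.13, so FDXR did not follow the split seen in TP53I3 (probe at 72858650-72858709 on the minus strand of chromosome 17, GRCh37). Its span of 0.39 exceeded those of 9.84% of the genes tested.

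TP53INP1, a stress protein that takes part in autophagy and in p53-dependent cell death, had levels of -0.44 and -1.64 in HK-2 and -1.36 and -0.81 in RPTEC/TERT1. Pair A was higher, as in TP53I3, and the labels overlapped. Before scaling, the signals were 290 and 240 in HK-2 and 190 and 245 in RPTEC/TERT1. Pair A thus stood only narrowly above pair B in unscaled signal. RRM2B encodes the p53-inducible small subunit of ribonucleotide reductase, which supplies deoxynucleotides for repair and for mitochondrial DNA in cells that do not divide. Its levels were -0.74, -2.59, -2.34 and -0.998 in the same order of arrays. HK-2 replicate 1 stood 1.85 above HK-2 replicate 2, and the difference RPTEC/TERT1 replicate 1 minus replicate 2 was -1.35. Both genes lie on the minus strand of chromosome 8 (GRCh37), where the probes used span 95938694-95938753 for TP53INP1 and 103217175-103217234 for RRM2B. Each has a second probe that was not well above background on any array and was left out.

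The comparison implied by the labels, HK-2 against RPTEC/TERT1, asked whether the cell lines differed under IL-1β plus Empa, and limma called 0 of 16468 genes at an adjusted p under 0.05 (0.0%), with 23 (0.14%) at an unadjusted p under 0.05. None of the 9 target genes was among either. The largest difference, HK-2 minus RPTEC/TERT1, was -0.31 ± 1.19 (SE, n = 2 arrays per label) in SESN2, followed by 0.30 ± 1.20 in GDF15 and -0.21 ± 0.57 in SESN1. Those of TP53I3, ZMAT3 and FDXR were -0.19 ± 1.26, -0.17 ± 0.49 and -0.13 ± 0.44, and those of MDM2, TP53INP1 and RRM2B were 0.10 ± 0.46, 0.04 ± 0.62 and 0.01 ± 0.89 (SE, n = 2 each). Every adjusted p in limma was 1, and the GDF15 value rests on a saturated spot of RPTEC/TERT1 replicate 2. The 95% interval ran from -2.96 to 3.55 for GDF15 and from -1.15 to 1.34 for MDM2, so this fit left room for differences of 2-fold between the cell lines. An exact two-sided permutation test of 2 against 2 arrays cannot give a p below 0.333 and was not run. The levels of both labels did not overlap in 7.17% of all genes and in 0 of the 9.

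Within a replicate number the labels did differ, but in opposite directions. In replicate 1, HK-2 minus RPTEC/TERT1 was 2.60 in GDF15, 2.25 in TP53I3, 1.60 in RRM2B and -2.61 in SESN2. In replicate 2 the same differences were -2.01, -2.63, -1.59 and 1.98. These 4 genes were the members past 2-fold in either number, against 36.0% of all genes in replicate 1 and 33.7% in replicate 2. With 1 array per label in each number there is no test of these values. The difference is pair A minus pair B in replicate 1 and pair B minus pair A in replicate 2. Between the 2 HK-2 arrays 6 of the 9 were past 2-fold against 34.0% of all genes, and between the 2 RPTEC/TERT1 arrays 4 of 9 against 40.4%.

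**Figure D3:**
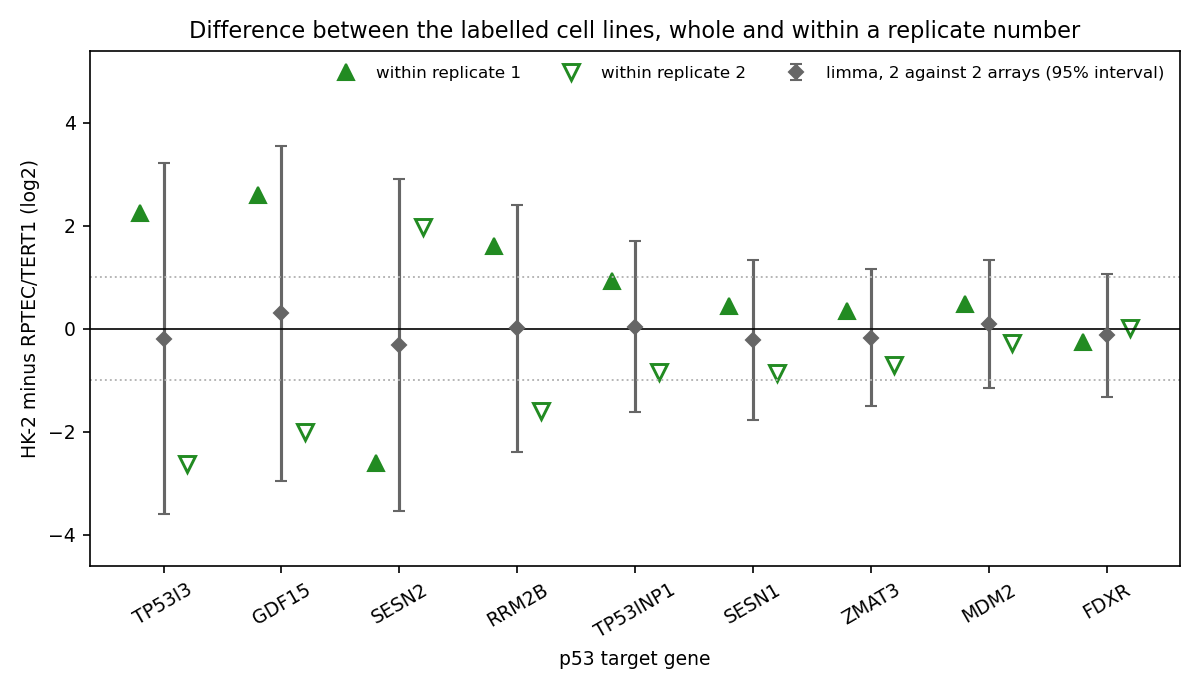
HK-2 minus RPTEC/TERT1 (log2) of each target gene, with the limma estimate and its 95% interval over 2 against 2 arrays as grey diamonds and bars, and the differences within replicate 1 and replicate 2 as filled and open triangles. Dotted lines mark 2-fold. All intervals include 0, and the triangles of TP53I3, GDF15, SESN2 and RRM2B lie on opposite sides of it.

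Across labels and numbers the picture was different. Within pair A 0 of the 9 target genes and 4.9% of all genes were past 2-fold, and within pair B again 0 of 9 and 6.78%. The pair A difference of GDF15 was not resolved, since its spot was saturated on RPTEC/TERT1 replicate 2. The median absolute difference of the 9 genes was 0.16 and 0.28 in these pairs, beside 0.22 and 0.30 over all genes. Between the HK-2 arrays it was 1.20 beside 0.67, and between the RPTEC/TERT1 arrays 0.55 beside 0.79. Pair A held the 2 highest levels in 38.8% of all genes and in 7 of the 9, and pair B in 33.2% and in SESN2. A span of 2-fold or more was found in 52.9% of all genes and in 6 of the 9 (TP53I3, GDF15, SESN2, RRM2B, TP53INP1 and SESN1), a share near the background. The spans of TP53I3 and SESN2 exceeded those of 90.1% and 89.5% of all genes, that of GDF15 those of at least 89.5%, and that of MDM2 those of 14.3%.

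Of 37 further p53 targets on the array, 31 were tested and limma called 0 in either direction. In replicate 1, HK-2 stood 2-fold or more above RPTEC/TERT1 in 8 of the 31 and below it in 2, beside 19.6% above and 16.4% below over all genes. In replicate 2 it stood above in 6 and below in 8, beside 15.95% and 17.8%. Pair A held the 2 highest levels in 17 of the 31, and pair B in 11, beside 38.8% and 33.2% of all genes. Thus the other targets were divided between both orders.

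Among the 8 targets that act in cell cycle arrest, SFN (14-3-3σ, which holds cyclin-dependent kinase in the cytoplasm) had levels of 2.96 and -0.39 in HK-2 and 0.05 and 3.21 in RPTEC/TERT1. GADD45A, a stress sensor that acts on growth arrest and repair, had 1.29, 2.73, 3.31 and 0.98. SFN followed TP53I3 and GADD45A followed SESN2 in the arrays that were high. Of the list, 6 of 8 were highest in pair A, beside 38.8% of all genes. The median difference was 0.65 in replicate 1 and -0.79 in replicate 2, beside 0.12 and -0.08 over all genes. CDKN1A, which encodes p21 and is named here after its values were seen, had -3.22, -3.98, -3.89 and -3.44, with signals well above background on all arrays.

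Of 14 apoptosis targets on the array 9 were tested. BBC3, the pro-death protein PUMA, had levels of 3.16 and 1.30 in HK-2 and 0.96 and 3.14 in RPTEC/TERT1, and the death receptor gene FAS had -0.07, -1.70, -1.84 and -0.17. Both were high where TP53I3 was high. The list as a whole was not: 4 of 9 had this order and 4 the opposite one, beside 38.8% and 33.2% of all genes. Median differences were 0.01 in replicate 1 and 0.40 in replicate 2. Of the 3 DNA repair targets, the damage-recognition gene XPC had -1.33, -2.59, -2.83 and -1.23, whereas DDB2, its partner in nucleotide excision repair, was low on RPTEC/TERT1 replicate 2 alone, at -2.66 beside -1.30, -1.29 and -1.22. POLH, the polymerase that copies past ultraviolet lesions, ranged from -3.14 to -2.43.

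Of 8 targets in metabolism and autophagy 7 were tested. DRAM1, a lysosomal membrane protein that promotes autophagy, had levels of 4.17 and 1.37 in HK-2 and 1.09 and 4.11 in RPTEC/TERT1. SCO2, an assembly factor of cytochrome c oxidase, had 1.59, 0.08, 0.23 and 1.53. These also split each label as TP53I3 did, and 5 of the 7 had this order, beside 38.8% of all genes. Medians of the list were 0.29 in replicate 1 and -0.44 in replicate 2. Of the 4 feedback genes, RPS27L, a ribosomal-like protein that acts on MDM2, ranged from 3.12 to 4.58 and the p53 ubiquitin ligase RCHY1 from -3.43 to -2.51.

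The 11 regulators of p53 lay mostly the other way, and limma called 0. Their median difference was -0.72 in replicate 1 and 0.88 in replicate 2. In HK-2, 5 were 2-fold or more lower in replicate 1 and 5 higher in replicate 2, beside 16.4% and 15.95% of all genes. Of the 11, 8 were highest in pair B, beside 33.2% of all genes. The checkpoint kinase gene CHEK2 had levels of -3.66 and -1.20 in HK-2 and -1.34 and -3.67 in RPTEC/TERT1. TP53BP2, whose product steers p53 towards death genes, had 2.25, 3.30, 3.92 and 1.72. Both genes thus had the order of SESN2.

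RRM1, the large subunit that joins RRM2B in ribonucleotide reductase, had levels of 0.58 and 3.76 in HK-2 and 3.17 and 0.74 in RPTEC/TERT1. RRM2, the small subunit of dividing cells, named here after its values were seen, was well above background in pair B only, at 2.44 in HK-2 and 2.97 in RPTEC/TERT1. RRM2B was thus low on the arrays where RRM1 and RRM2 were high.

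ATF4 raises SESN2 too, so its targets were also listed, together with ATF4 itself. Of these 12 genes on the array 11 were tested and limma called 0. The order of SESN2 was seen in 9 of the 11, ATF4 among them, beside 33.2% of all genes. PHGDH and PSAT1, enzymes of serine synthesis, differed widely. PHGDH had levels of -4.21 and 3.54 in HK-2 and 3.43 and -4.34 in RPTEC/TERT1, and PSAT1 0.53 and 4.38 in HK-2 and 3.99 and 0.38 in RPTEC/TERT1. DDIT4, an mTORC1 inhibitor, had 0.79, 5.00, 5.41 and 1.71. The median difference of the list was -1.22 in replicate 1 and 1.65 in replicate 2. In replicate 1, 6 of 11 were 2-fold or more lower in HK-2, beside 16.4% of all genes. In replicate 2, 6 of 11 were 2-fold or more higher, beside 15.95%. The spot of ATF4 itself was saturated on HK-2 replicate 2.

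A wide split was seen in the 12 cell cycle genes that fall through p21 and DREAM. All 12 were past 2-fold in both numbers and all had the order of SESN2, with median differences of -5.62 in replicate 1 and 5.14 in replicate 2, and limma called 0. Over all genes 36.0% were past 2-fold in replicate 1 and 33.7% in replicate 2, and 33.2% had that order. Of the 12, 7 were well above background on all 4 arrays, and the differences of the other 5 rest on arrays at or near background. CDK1, the kinase that starts mitosis, had levels of -3.22 and 3.65 in HK-2 and 3.23 and -2.48 in RPTEC/TERT1. BIRC5 (survivin) had -2.98, 4.16, 3.97 and -1.79. The arrays with high TP53I3, GDF15 and RRM2B were those with low levels of these genes. The part of cell division in the values of the p53 targets was not tested.

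**Figure D4:**
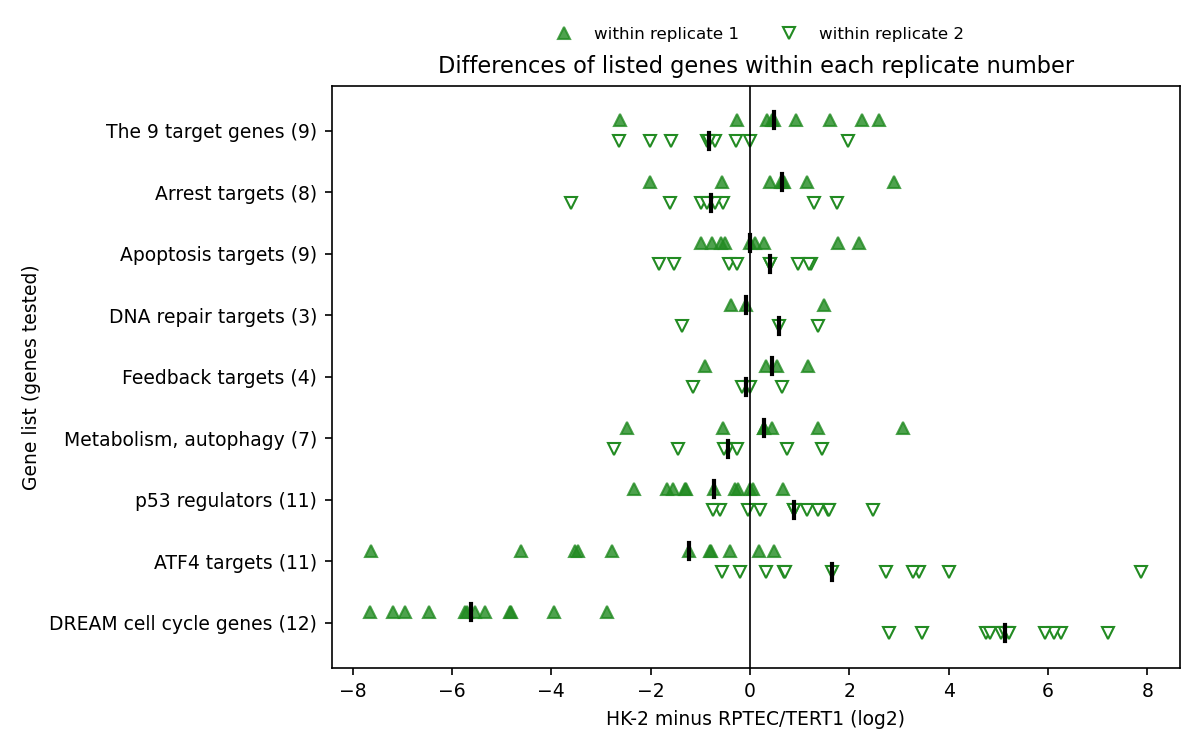
HK-2 minus RPTEC/TERT1 (log2) of each tested gene, by list, within replicate 1 (filled triangles) and replicate 2 (open triangles), with the number of genes tested in brackets and the median as a black bar. The 12 DREAM genes lie between -7.64 and -2.87 in replicate 1 and between 2.79 and 7.21 in replicate 2, while the p53 target lists lie on both sides of 0. The list of ATF4 targets includes ATF4 itself.

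The genes whose centred levels lay closest to a member's were found among 13769 genes well above background on all 4 arrays, by the root mean square difference over 4 arrays (log2). They were HEXIM1 (0.06), FMO4 (0.07) and TOM1L2 (0.07) for GDF15, IFT140 (0.03), LOC100129846 (0.06) and TRERF1 (0.08) for TP53I3, and SPAG4 (0.05), XRCC3 (0.06) and RMI1 (0.07) for SESN2. For RRM2B they were GOT1 (0.02), ELFN2 (0.03) and YPEL5 (0.04), for TP53INP1 BET1L (0.03), HAAO (0.03) and the unnamed probe A_33_P3358347 (0.03), and for SESN1 AKR1B1 (0.01), MLX (0.03) and RNF217 (0.04). Within 0.1 lay 9 genes for SESN2, 17 each for GDF15 and TP53I3, 58 for RRM2B, 92 for SESN1 and 153 for TP53INP1. For GDF15 the distances use the saturated value of RPTEC/TERT1 replicate 2, a lower bound. With 4 arrays in 2 tight pairs, such nearness is shared by many genes and describes these arrays only.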

How the data were processed

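Levels came from 4 one-colour Agilent Human GE 4x44K v2 arrays, 2 per label. The authors deposited spot intensities (processed signal, flags) on a linear scale, from Agilent Feature Extraction 9.5.3.1, with probe positions on GRCh37 per the file headers. A table of log2 values that the authors deposited, made by steps the sources used here do not name, served as an alternative.

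The labels gave the groups, numbers, doses and times. Without control and outlier spots, signals were scaled to the array's 75th percentile, floored at 0.0242 of it and taken to log2. Spots of a probe were averaged, then a gene's probes, leaving out those not well above background on any array. limma 3.58.1 (R 4.3.3) compared HK-2 with RPTEC/TERT1 over 16468 genes, with Benjamini-Hochberg adjustment over all of them at 0.05. These genes were well above background on 2 arrays or more and had a value on all 4 arrays. Genes left without a value on an array once outlier spots were removed were not tested, however bright. The script was tested on simulated data. The number of arrays limits the precision.

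Genes were named by rule: the 9 members, of each list the called genes and the 2 largest differences within each replicate number among genes well above background on all 4 arrays, and the 3 nearest genes of members spanning 1 or more. Members, lists and tests were chosen with earlier results of these data known. Names of all 14 probes' transcripts matched RefSeq (GRCh38.p14), which also gave the promoter windows, read with Python 3.11.15. Alternatives covered background correction, scaling, probe summary, outlier spots, filters, the replicate block and each array left out. Exon annotation of the probe positions was not used here.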

Additional observations from a re-analysis of the deposited data

Results flagged for a closer look

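In 4 target genes HK-2 minus RPTEC/TERT1 (log2) had opposite signs in both replicate numbers and was past 2-fold in each. The change of sign was not tested, since each number holds 1 array per label. Over all genes 36.0% were past 2-fold in replicate 1 and 33.7% in replicate 2. The share past 2-fold in both with opposite signs was not computed. The difference is pair A minus pair B in replicate 1 and pair B minus pair A in replicate 2. A gene split by these pairs therefore changes sign. TP53I3 stood at 2.25 within replicate 1 and -2.63 within replicate 2. GDF15 stood at 2.60 and -2.01, where the replicate 2 value rests on a saturated spot of RPTEC/TERT1. RRM2B stood at 1.60 and -1.59. SESN2 ran the other way, at -2.61 within replicate 1 and 1.98 within replicate 2.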

How the results depend on the processing

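Under all 15 alternatives limma called 0 genes over all genes, 0 of the 9 members and 0 of the listed genes, while 3 to 240 genes lay under an unadjusted p of 0.05. The fit that took the replicate number (and so the scan date) as a block called 0, with 5 genes under that unadjusted p, and changed no call. Same-numbered arrays deviated from their label's mean in opposite ways (r = -0.784). The crossed pairing (pairs A and B) as a block, chosen after seeing the data, also called 0, with 183 under it.

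The members past 2-fold within replicate 1 rose from 4 to 8 with normexp correction and to 7 with the deposited log2 values. They stayed at 4 with normexp once 7 spots with a local background over 100, all on HK-2 replicate 1, were left out, an alternative added after seeing the data. Differences between the labels changed sign with normexp in GDF15 (-0.17), SESN1 (0.49), SESN2 (0.32) and ZMAT3 (0.61), with the deposited values in SESN1 (0.16), SESN2 (0.09) and ZMAT3 (0.27), and in RRM2B with quantile normalization (-0.004) and with normexp without those spots (-0.012). None was past the threshold before or after. The order of arrays held for 7 members and SESN2 in every setting, except MDM2 with its brightest probe. All of these settings scale the arrays, and unscaled signals were not among them. TP53I3 kept all 4 differences within labels and numbers past 2-fold in 7 of 7 such settings, and GDF15, SESN2 and RRM2B in 6 of 7.

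Leaving out each array in turn, with the lone array assumed to vary like the other label, moved the difference between -0.14 and 0.33 in MDM2, -1.01 and 1.60 in GDF15, -0.78 and 0.36 in SESN1, -1.54 and 0.92 in SESN2, -1.54 and 1.15 in TP53I3, -0.33 and 0.07 in FDXR, -0.49 and 0.14 in ZMAT3, -0.56 and 0.64 in TP53INP1, and -0.92 and 0.93 in RRM2B. Signal over background limits the MDM2 probe with 10 spots and the second probes of TP53INP1 and RRM2B, and saturation limits GDF15.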
